A study of Zea mays with 9 samples.

Results

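The 6 maize genes described here are the circadian clock genes cca1 (GRMZM2G014902), lhy1 (GRMZM2G474769), toc1 (GRMZM2G020081), toc1b (GRMZM2G148453), gigz1 (GRMZM2G107101) and gi2 (GRMZM5G844173). They were taken by identifier from a table of 39656 genes, and each of the 6 passed the filter on low counts that left 22544 genes for testing. RNA came from maize seedlings aged 14 days, grown in a chamber with 15 hours of light and 9 hours of dark, in 3 genotypes with 3 libraries each. P1-ww714 carries that allele of p1, a chromosome 1 gene for a MYB regulator of red pigments, P1-ww714/B73 is the heterozygote, and B73 is the reference inbred line. The series is about dosage effects of copy-number alterations. From knowledge beyond the labels, the P1-ww714 chromosome holds a duplicated stretch of chromosome 1 next to p1, and the comparisons ask how transcripts follow its dose. The label P1-ww714 does not itself say that the allele is homozygous. The sources used here give neither the hour of harvest nor the number of plants behind a library, so p-values measure the spread between these libraries, which may be technical.

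The plant clock is a loop of genes that repress each other at opposite times of day. In Arabidopsis, the MYB-type factors CCA1 and LHY accumulate around dawn and repress evening genes, among them TOC1 and GIGANTEA, and TOC1, a pseudo-response regulator, represses CCA1 and LHY in turn. GIGANTEA peaks late in the day, stabilises clock proteins and promotes the flowering regulator CONSTANS. In maize leaves, transcripts of cca1 and lhy1 also peak near dawn and those of the toc1 and gigantea genes late in the day. Here cca1 and lhy1 are called morning genes, and toc1, toc1b, gigz1 and gi2 evening genes. The reference table of assembly Zm-B73-REFERENCE-NAM-5.0 matched 5 of the 6 identifiers, and 0 of these 5 lie on chromosome 1. They are placed on chromosome 4 (cca1 and toc1), chromosome 10 (lhy1), chromosome 8 (gigz1) and chromosome 3 (gi2), while toc1b is named only. Of the 6, the table gives a gene name to the gigantea genes, and the other names are those under which the members were chosen. It also lists a second identifier, GRMZM2G175265, under the lhy1 locus.

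Library totals ran from 9486044 to 16189684 counts. Markers of green leaf tissue were high in each of the 9 libraries, with 5 of 5 matched markers (among them the C4 enzyme genes pep1 and pdk1) between 922 and 22560 CPM (counts scaled to library size, with TMM factors), whereas 6 endosperm storage protein genes had at most 2 counts. The first heterozygote library, P1-ww714/B73 replicate 1, stood apart. Its mean correlation with the other libraries was 0.965, against 0.974 to 0.982 for the other 8. Its median over 12 histone genes lay at -1.86 log2 relative to the B73 mean, against -0.16 to 0.32 in the other libraries, and its median over 15 cell division genes at -2.20, against -0.25 to 0.18. The part of this in the results below was not tested beyond giving values without that library.

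The clock genes did not differ detectably between genotypes. In P1-ww714 against B73, 0 of 6 passed the edgeR quasi-likelihood test after Benjamini-Hochberg adjustment over all 22544 genes, where 0.776% of genes passed. In P1-ww714/B73 against B73, 0 of 6 passed against a background of 0.111%, while P1-ww714 set against the heterozygote gave 0 of 6, against a background of 0%. At an unadjusted p under 0.05 in this edgeR fit the members passed 0 times in each comparison, beside 1607, 585 and 680 of all genes. DESeq2 also called 0 members after adjustment, while its unadjusted p for toc1b in P1-ww714 against B73 was 0.0478. The libraries of the compared genotypes overlapped in 18 of 18 member tests, whereas 13.3% of genes had libraries that did not overlap in P1-ww714 against B73, 6.84% in P1-ww714/B73 against B73 and 6.78% in P1-ww714 against the heterozygote. Read against backgrounds this low, a count of 0 among 6 genes is near the background. In whole seedlings, fewer cells that express a gene and less RNA per cell cannot be told apart.

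The morning gene cca1, a MYB factor of the dawn loop, had 744, 827 and 987 CPM in the P1-ww714 libraries. It had 977, 887 and 1072 CPM in P1-ww714/B73 and 791, 887 and 1168 CPM in B73. The highest value within each genotype was in replicate 3, and the 3 genotypes overlapped, with the widest range in B73. The log2 fold of P1-ww714 over B73 was -0.15 with a standard error of 0.17 and a 95% interval of -0.53 to 0.22 (edgeR adjusted p = 0.982). That of P1-ww714/B73 over B73 was 0.04 (interval -0.33 to 0.42, edgeR adjusted p = 1). The means were 853 ± 124 CPM in P1-ww714, 979 ± 92.2 CPM in P1-ww714/B73 and 949 ± 196 CPM in B73 (SD, n = 3 each), and neighbours in the order of levels did not differ beyond their spread.

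The partner of cca1, lhy1, had 728, 825 and 773 CPM in P1-ww714, 896, 744 and 816 CPM in P1-ww714/B73, and 698, 819 and 933 CPM in B73. No genotype was set apart, and the lowest and the highest library were both B73. The log2 fold of P1-ww714 over B73 was -0.08 with a standard error of 0.14 (interval -0.38 to 0.23, edgeR adjusted p = 0.989), and that of P1-ww714/B73 over B73 was 0.003 (interval -0.30 to 0.31, edgeR adjusted p = 1). The second identifier of the lhy1 locus averaged 138 ± 3.34 CPM in P1-ww714, 144 ± 12.2 CPM in P1-ww714/B73 and 139 ± 22.1 CPM in B73 (SD, n = 3). It moved as little as lhy1, with log2 folds of -0.02 and 0.04 for P1-ww714 and the heterozygote over B73. The sources used here do not say how reads were shared between near-identical genes, so the counts of the paralogs cca1 and lhy1, of toc1 and toc1b, and of gigz1 and gi2 could be divided in part by the counting.

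**Figure D1:**
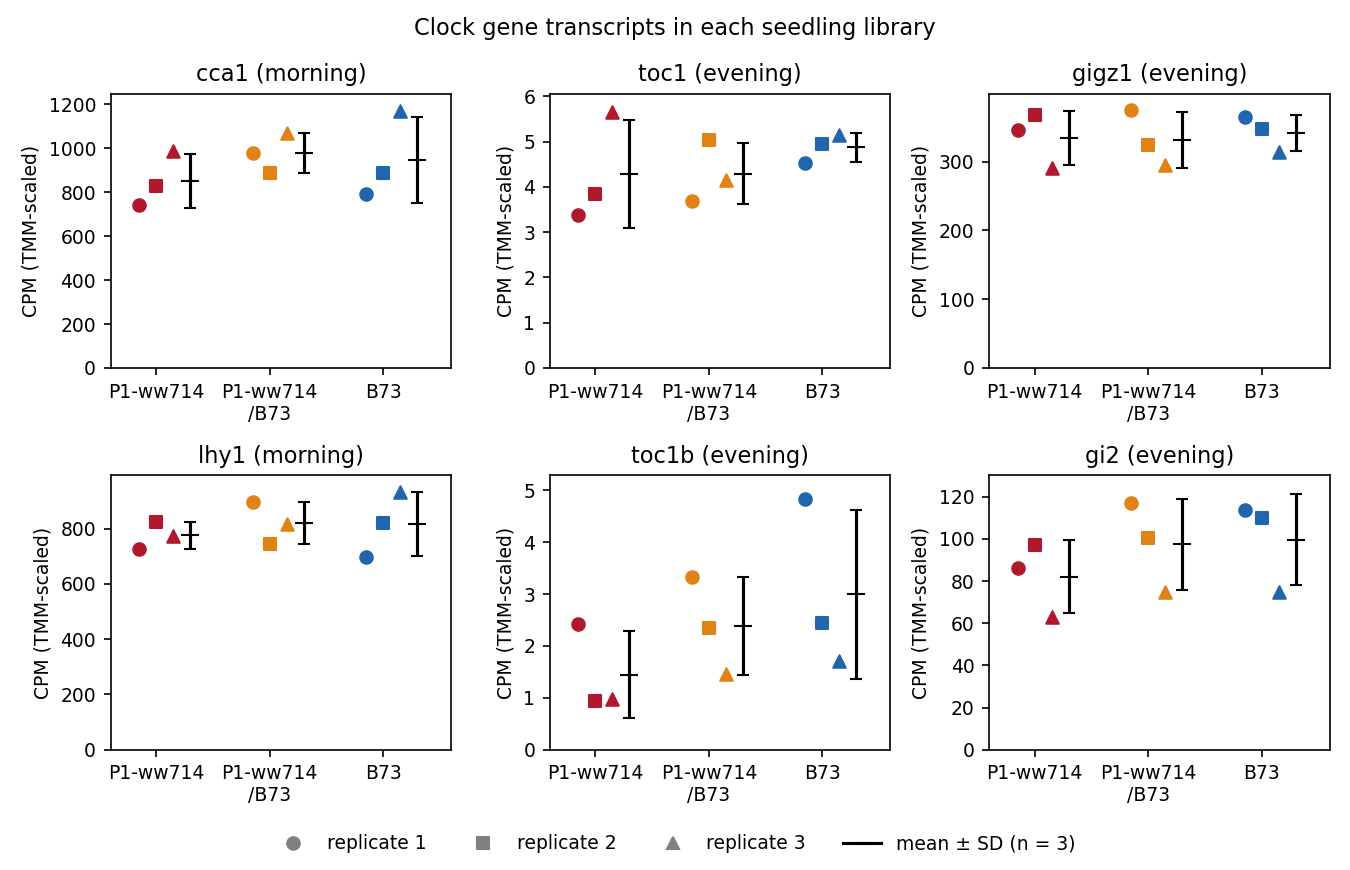
TMM-scaled CPM of the 6 clock genes (y axis, linear from 0, a scale per panel) in the 9 libraries by genotype (x axis); symbols mark the replicate number and black bars the mean ± SD of 3 libraries. The genotypes overlap in each panel, and gi2 and gigz1 were lowest in replicate 3 of each genotype.

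Among the evening genes, toc1, whose Arabidopsis counterpart represses the morning genes, was read at low depth, with 40 to 86 counts per library. It stood at 3.38, 3.85 and 5.65 CPM in P1-ww714, 3.698, 5.03 and 4.15 CPM in P1-ww714/B73, and 4.52, 4.96 and 5.14 CPM in B73. The B73 libraries lay close together and inside the range of P1-ww714. The log2 fold was -0.18 in P1-ww714 over B73 (standard error 0.23, interval -0.69 to 0.33) and -0.17 in P1-ww714/B73 over B73 (interval -0.69 to 0.34), with edgeR adjusted p of 0.989 and 1. The P1-ww714 fold was -0.43 when its replicate 3 was left out and -0.03 when its replicate 1 was.

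The second toc1 gene, toc1b, had the widest differences and the fewest reads of the 6. Its counts were 38, 11 and 15 in P1-ww714, 37, 37 and 14 in P1-ww714/B73, and 62, 29 and 17 in B73, or 2.42, 0.94 and 0.985 CPM, 3.34, 2.35 and 1.45 CPM, and 4.83, 2.44 and 1.71 CPM. Replicate 1 was the highest library of each genotype, and P1-ww714 replicate 1 lay inside the B73 range. The 11 counts of P1-ww714 replicate 2 correspond to 0.94 CPM of the unscaled library total with an exact Clopper-Pearson 95% interval of 0.469 to 1.68, and the 62 counts of B73 replicate 1 to 5.08 on the same scale with 3.90 to 6.51. These intervals cover counting error only. The mean was 1.45 ± 0.844 CPM in P1-ww714, 2.38 ± 0.942 CPM in the heterozygote and 2.99 ± 1.63 CPM in B73 (SD, n = 3). The log2 fold of P1-ww714 over B73 was -1.04 with a standard error of 0.48 and an interval of -2.10 to 0.03, an unadjusted p of 0.0558 and an adjusted p of 0.724 in the edgeR test. Without P1-ww714 replicate 1 it was -1.64, and without B73 replicate 1 it was -0.51, neither past the threshold.

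The gigantea gene gigz1 had 346, 367 and 291 CPM in P1-ww714, 376, 323 and 295 CPM in P1-ww714/B73, and 365, 347 and 313 CPM in B73. The genotypes overlapped, with log2 folds of -0.03 in P1-ww714 over B73 (standard error 0.13, interval -0.32 to 0.26) and -0.05 in P1-ww714/B73 over B73 (interval -0.34 to 0.25), and edgeR adjusted p of 0.996 and 1. Its paralog gi2 had 86.0, 97.3 and 63.1 CPM in P1-ww714, 117, 100.5 and 74.6 CPM in P1-ww714/B73, and 114, 110 and 74.7 CPM in B73. In each genotype the lowest gi2 library was replicate 3. The log2 fold of gi2 was -0.28 in P1-ww714 over B73 (standard error 0.21, interval -0.75 to 0.19, edgeR adjusted p = 0.941) and -0.03 in P1-ww714/B73 over B73 (interval -0.50 to 0.44, edgeR adjusted p = 1). Without single libraries the P1-ww714 fold of gi2 ran from -0.45 without B73 replicate 3 to -0.12 without P1-ww714 replicate 3.

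P1-ww714 against P1-ww714/B73 shares its libraries with both comparisons above and gave log2 folds of -0.20 for cca1, -0.08 for lhy1, -0.006 for toc1, -0.70 for toc1b, 0.01 for gigz1 and -0.25 for gi2, each with an edgeR adjusted p of 1. Over the 6 genes, the log2 fold was below 0 for 6 in P1-ww714 against B73, 4 in P1-ww714/B73 against B73 and 5 in P1-ww714 against the heterozygote. The medians of the 6 were -0.17, -0.04 and -0.14, beside -0.002, -0.001 and 0.007 over all genes tested. These folds rest on shared libraries and are given as a description. What the data exclude is clearer. In each comparison the 95% interval of 5 of the 6 genes excluded a 2-fold difference in either direction, toc1b being the exception. A 1.5-fold difference was excluded for 3 genes in P1-ww714 against B73 (cca1, lhy1 and gigz1) and for 4 genes in each of the other comparisons.

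**Figure D2:**
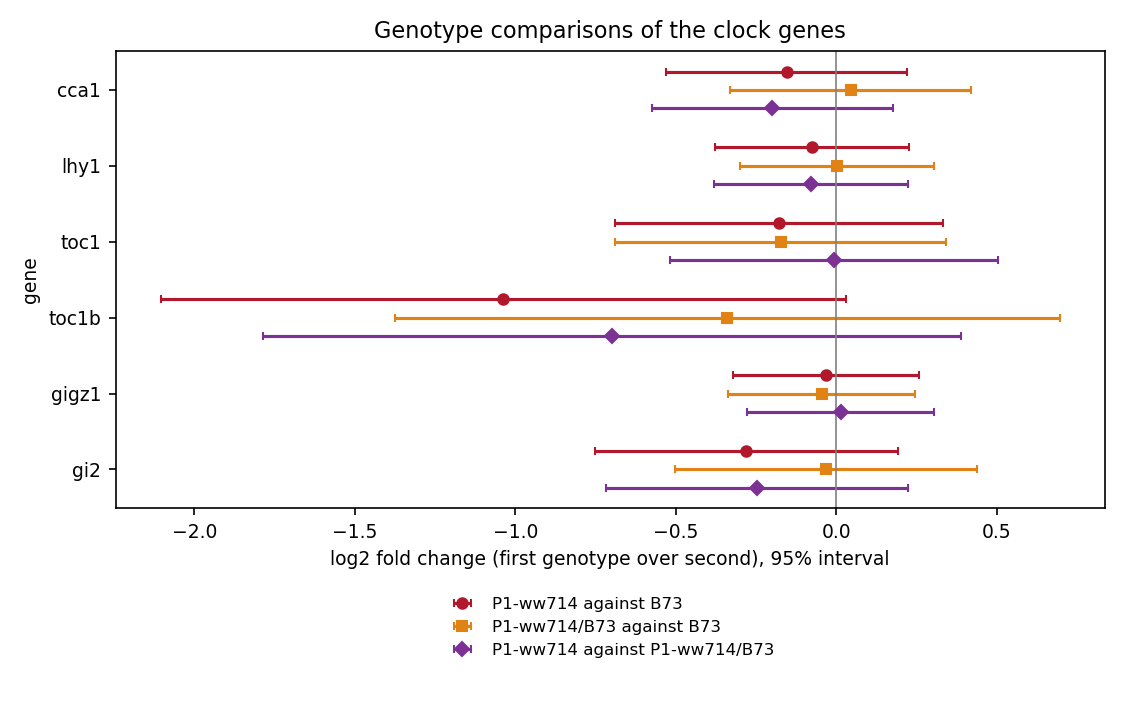
Log2 fold changes of the 6 clock genes (first genotype over second, x axis) with 95% intervals from the edgeR fit over 9 libraries, for 3 comparisons per gene (y axis). Each of the 18 intervals holds 0, and the intervals of toc1b, the gene with the fewest counts, are the widest.

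The balance of morning and evening genes was read per library as the mean log2 CPM of cca1 and lhy1 minus the mean of the 4 evening genes. Gene lengths enter its level and cancel between libraries, so only differences between libraries are read from it. It was 5.01, 5.37 and 5.55 in P1-ww714, 5.08, 4.99 and 5.56 in P1-ww714/B73, and 4.57, 4.996 and 5.57 in B73. Replicate 3 of the 3 genotypes stood within a narrow band at the top, and the lowest library was B73 replicate 1. The genotype means were 5.31 ± 0.274, 5.21 ± 0.309 and 5.04 ± 0.504 (SD, n = 3), so the differences of 0.27 for P1-ww714 and 0.17 for the heterozygote over B73 were smaller than the SD of the B73 libraries. The difference of P1-ww714 over B73 was 0.03 without B73 replicate 1 and 0.53 without B73 replicate 3. No test was made of this measure, since it is a score over members chosen with results known. Of the evening genes, which count equally in it, toc1b varied most within genotypes. Its SD of log2 CPM was 0.56 to 0.72, against 0.09 to 0.37 for the others. With gigz1 and gi2 as the only evening genes the differences were 0.05 and 0.07.

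Ratios of paralog counts within a library need no scaling. The ratio of cca1 to lhy1 was 1.02, 1.002 and 1.28 in P1-ww714, 1.09, 1.19 and 1.31 in P1-ww714/B73, and 1.13, 1.08 and 1.25 in B73, with replicate 3 the highest of each genotype. The ratio of gigz1 to gi2 was 4.02, 3.77 and 4.61 in P1-ww714, 3.21, 3.22 and 3.95 in P1-ww714/B73, and 3.20, 3.15 and 4.19 in B73. Here too replicate 3 was the highest of each genotype, and the P1-ww714 range overlapped the others. The ratio of toc1 to toc1b was the most variable, at 1.39, 4.09 and 5.73 in P1-ww714, 1.11, 2.14 and 2.86 in P1-ww714/B73, and 0.935, 2.03 and 3 in B73. Replicate 1 was lowest and replicate 3 highest in each genotype, so the 2 toc1 genes did not keep a fixed ratio across libraries.

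**Figure D3:**
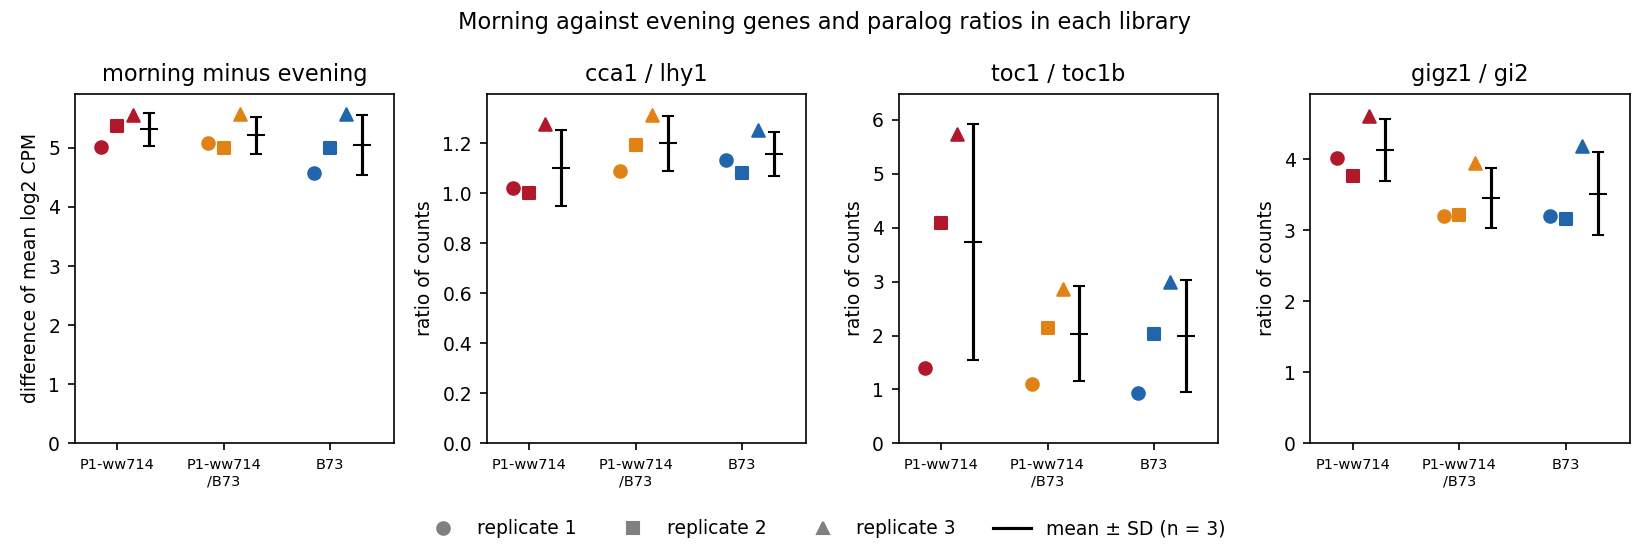
Morning minus evening difference of mean log2 CPM (first panel, a difference) and ratios of counts between paralogs (other panels, linear from 0) in the 9 libraries by genotype; symbols mark the replicate number and bars the mean ± SD of 3 libraries. Replicate 3 is the highest library of each genotype in the 4 panels.

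Libraries that share a replicate number in their titles resembled each other in several clock genes, although the labels do not say that the number marks a day, a tray or an hour of harvest. Relative to the mean of its genotype, gi2 stood at -0.36, -0.36 and -0.39 log2 in replicate 3 of P1-ww714, P1-ww714/B73 and B73. For toc1b, replicate 1 stood at 0.80, 0.53 and 0.79 log2 above its genotype mean. For cca1, replicate 3 stood at 0.22, 0.14 and 0.32 above. These 3 genes thus moved the same way in the 3 genotypes. So did gigz1, lowest in replicate 3 of each at -0.19, -0.16 and -0.12. The same held for toc1, lowest in replicate 1 of each at -0.30, -0.20 and -0.10. By contrast, lhy1 did not, at -0.002, -0.0007 and 0.20 in replicate 3. The replicate numbers given for each gene were picked from its values. The share of all genes with such an order was not counted. In an edgeR fit with genotype and replicate number, chosen after these values were seen, the number term had an unadjusted p of 0.000529 for gi2, 0.00181 for toc1b, 0.0376 for cca1, 0.0687 for gigz1, 0.254 for toc1 and 0.709 for lhy1. After adjustment over all genes these were 0.112, 0.164, 0.435, 0.534, 0.777 and 0.96, so 0 of 6 passed, where 0.133% of all genes did. Without P1-ww714/B73 replicate 1 the lowest adjusted p of a member was 0.0967.

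Spread between libraries of a genotype was set against that of genes with the same mean expression, as the ratio of the gene's biological coefficient of variation to the edgeR trend. It was 1.55 for toc1b and 1.37 for gi2, above 93.7% and 89.8% of the ratios of all genes tested. For cca1 it was 1.03, for gigz1 0.868, for lhy1 0.855 and for toc1 0.81, between the 42.3 and 72.5 percentiles. The members thus ranged from ordinary to high in their spread, and the pair of toc1 genes and the pair of gigantea genes each held 1 more variable copy.

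**Figure D4:**
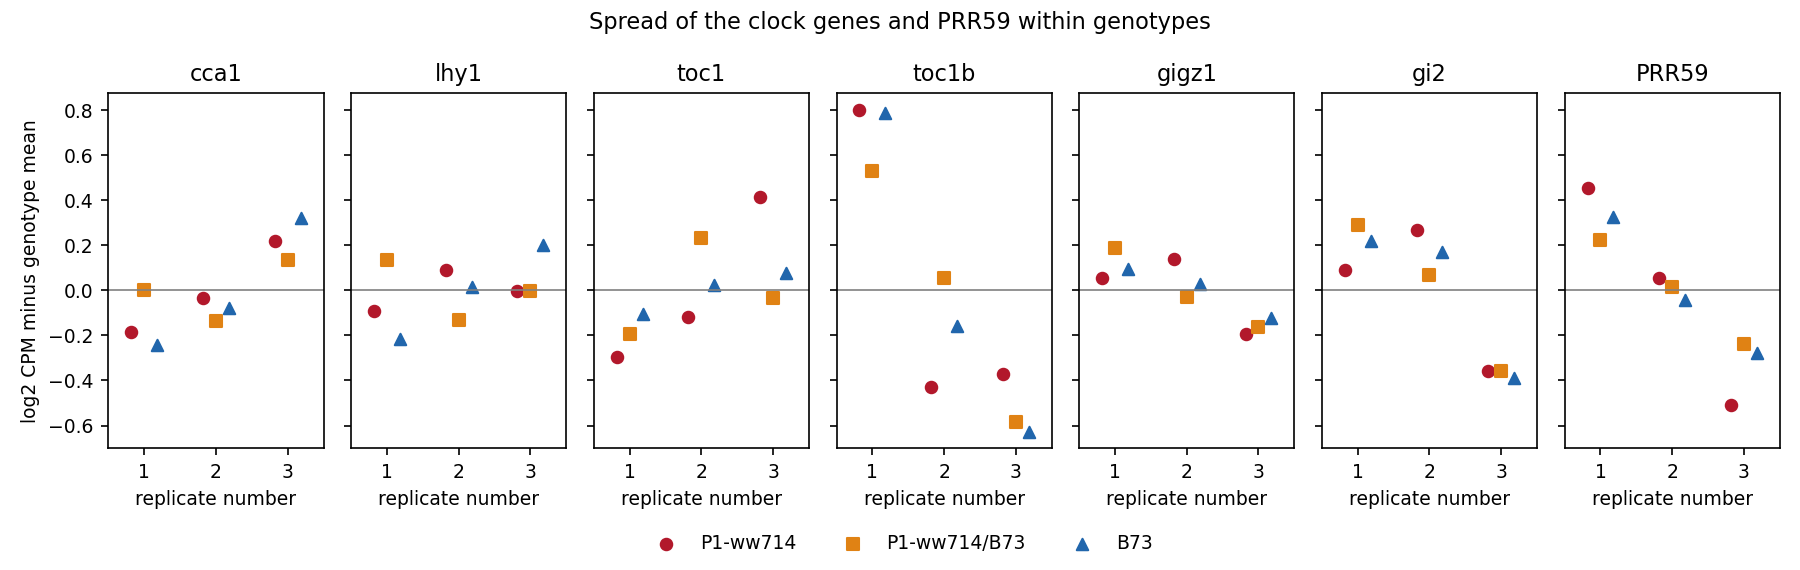
Log2 CPM of each library minus the mean of its genotype (y axis) against the replicate number in the sample titles (x axis) for the 6 clock genes and PRR59; symbols mark the genotype. For gi2, gigz1 and PRR59 the points of replicate 3 lie below 0 in the 3 genotypes, and for toc1b and PRR59 those of replicate 1 lie above 0.

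Across the 9 libraries, the gigantea genes varied together. Their log2 CPM values had a Pearson r of 0.877 (exact permutation p = 0.00308, adjusted over 15 pairs 0.0461) and a Spearman rho of 0.867 (exact permutation p = 0.00451, adjusted 0.0676), two-sided. With values centred within genotype r was 0.952 (p = 0.00463, the smallest that the 216 permutations within genotype can give, adjusted 0.0694). Without the 2 libraries farthest from the median of gigz1, r was 0.725 with an adjusted p of 0.346 by the same exact permutation test. The call was thus lost without them. Leaving out the extremes of gigz1 itself narrows its range and leaves fewer libraries, so this cannot show whether the relation rests on them. Over the 9 libraries, the gigantea pair was the only pair of 15 past the threshold.

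The morning pair cca1 and lhy1 had r = 0.75 and rho = 0.60, with exact permutation p of 0.0208 and 0.0968 and adjusted values of 0.156 and 0.332. Centred within genotype, r was 0.734. The pair toc1b and gi2 had r = 0.715 and rho = 0.783, with adjusted exact permutation p of 0.163 and 0.129. Between morning and evening genes, cca1 was inverse to gi2 within genotypes (r = -0.811, exact permutation p = 0.0417, adjusted 0.226), to toc1b (r = -0.782, adjusted 0.226) and to gigz1 (r = -0.677, adjusted 0.226). Over all libraries without centring these were -0.50, -0.34 and -0.61. With toc1, cca1 was not inverse (r = 0.486 within genotypes, 0.457 over all libraries). For lhy1 within genotypes, r was -0.568 with toc1b, -0.251 with gi2, -0.0519 with gigz1 and -0.0173 with toc1. None of these passed after adjustment. The toc1 values were inverse to both gigantea genes, without passing, at r = -0.578 with gigz1 and -0.354 with gi2 over the 9 libraries (adjusted exact permutation p = 0.315 and 0.553).

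**Figure D5:**
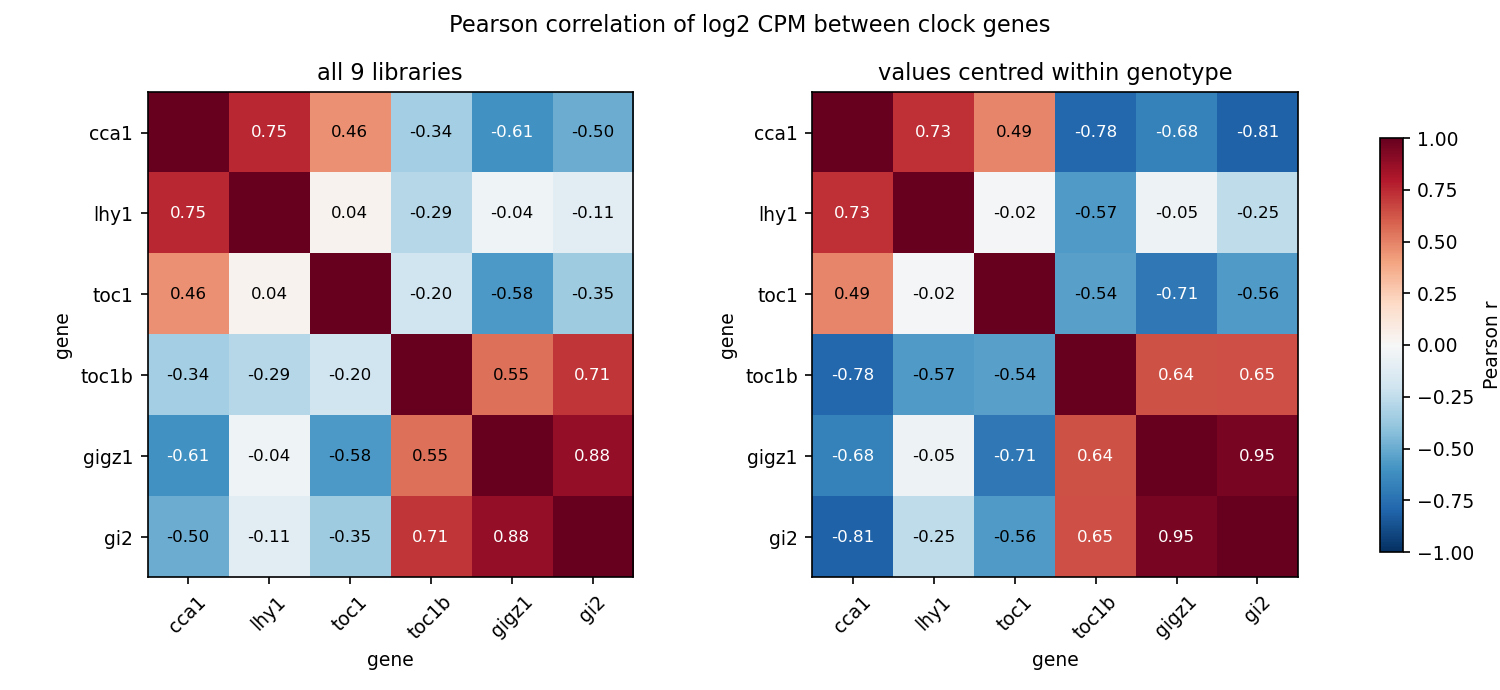
Pearson correlation of TMM-scaled log2 CPM between the 6 clock genes over 9 libraries (left) and after centring within genotype (right); colour and number give r. The gigz1 and gi2 cell is the highest off the diagonal in both panels, at 0.88 and 0.95.

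Other clock genes were sought by symbol, and the reference table named 1 in the count table, PRR59 (GRMZM2G135446), a pseudo-response regulator of the family of TOC1. It had 18.6, 14.0 and 9.45 CPM in P1-ww714, 19.8, 17.1 and 14.3 CPM in P1-ww714/B73, and 28.9, 22.3 and 18.96 CPM in B73. The P1-ww714 libraries lay below the B73 libraries without overlap, beside 13.3% of all genes without overlap in that comparison. The heterozygote overlapped both. The log2 fold of P1-ww714 over B73 was -0.74 with a standard error of 0.24 and an interval of -1.27 to -0.22. Its unadjusted p of 0.0101 came to 0.389 after edgeR adjustment over all genes, so it was not called. P1-ww714/B73 over B73 had -0.46 (interval -0.98 to 0.07, edgeR adjusted p = 1). Within each genotype replicate 1 was the highest and replicate 3 the lowest PRR59 library.

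Of 6 tested photoreceptor genes, which carry light signals to the clock, 1 rose and 0 fell in P1-ww714 against B73, and 0 passed in either other comparison, beside 0.776%, 0.111% and 0% of all genes. The gene that rose was the phytochrome gene PhyB1 (GRMZM2G124532), on chromosome 1 of the same assembly, with 135, 136 and 140 CPM in P1-ww714, 108, 102 and 99.6 CPM in P1-ww714/B73, and 59.1, 68.3 and 72.0 CPM in B73. The 3 genotypes did not overlap, and the log2 fold of P1-ww714 over B73 was 1.04 (interval 0.82 to 1.26, edgeR adjusted p = 0.000567). The other one named is nph1, a phototropin gene for blue light, at 137 ± 22.7 CPM in P1-ww714, 153 ± 41.6 CPM in P1-ww714/B73 and 169 ± 24.9 CPM in B73 (SD, n = 3), with a log2 fold of -0.31 over B73 in P1-ww714 (edgeR adjusted p = 0.893). The list medians were 0.02, 0.02 and -0.01 in the 3 comparisons, close to those of all genes.

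The next list held photoperiod and flowering genes, matched by symbol, and its members need not lie downstream of the clock. Of the 21 found, 8 were tested, and 0 passed in any comparison, which is near the shares of all genes (0.776%, 0.111% and 0%). The list medians were -0.12, -0.04 and -0.01. In P1-ww714 against B73, 2 of the 8 had libraries that did not overlap, conz1 and id1, beside 13.3% of all genes. The CONSTANS-like gene conz1 (GRMZM2G405368) had 16.3, 15.6 and 17.6 CPM in P1-ww714, 16.3, 15.3 and 18.4 CPM in P1-ww714/B73, and 20.9, 18.1 and 21.9 CPM in B73. P1-ww714 lay below B73 without overlap, while the heterozygote overlapped B73 in 1 library of each. The log2 folds over B73 were -0.30 (interval -0.57 to -0.02, edgeR adjusted p = 0.619) in P1-ww714 and -0.29 (interval -0.57 to -0.01, edgeR adjusted p = 1) in P1-ww714/B73. The other gene without overlap was id1 (GRMZM2G011357), a maize regulator of the floral transition, named here after its values were seen. Like PhyB1, id1 is placed on chromosome 1, but no coordinates were compared, so its place relative to the duplicated stretch was not tested. The id1 libraries had 8.61, 9.31 and 11.8 CPM in P1-ww714, 9.29, 7.32 and 9.03 CPM in P1-ww714/B73, and 7.95, 7.48 and 6.35 CPM in B73. P1-ww714 lay above B73, with a log2 fold of 0.44 (interval 0.05 to 0.84, edgeR adjusted p = 0.595). HD6, the counterpart of a rice flowering time gene, averaged 56.6 ± 2.34 CPM in P1-ww714, 57.3 ± 5.56 CPM in P1-ww714/B73 and 58.5 ± 3.24 CPM in B73 (SD, n = 3). The 6 light-harvesting genes of the photosystems, whose transcripts also cycle over the day, held 0 calls, with medians of 0.19, 0.14 and 0.03. Among these 6, cab48 did not overlap in P1-ww714 against B73, with 207, 210 and 247 CPM against 128, 181 and 109 CPM. Its log2 fold there was 0.67 (interval -0.42 to 1.76, edgeR adjusted p = 0.933), and its heterozygote libraries ran from 46.9 to 325 CPM. The histone and cell division lists held 0 calls in each comparison as well. For these lists and the light-harvesting genes, too, 0 calls is near the shares of all genes given above. In the heterozygote, the histone and cell division lists include the low P1-ww714/B73 replicate 1, with medians of -1.86 and -2.20 log2 relative to the B73 mean.

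Genes with a name and a mean log2 CPM of at least 1, 2057 in number, were ranked by their Pearson r with the members over the 9 libraries, as a description of these libraries. Most like the mean of cca1 and lhy1 were O10 (r = 0.904), magi29945 (0.866), CCD (0.863) and Emb12 (0.862). The most opposite were bx1 (r = -0.974), the gene for the first step of benzoxazinoid defence compounds, tub6 (-0.878), a tubulin gene, and nfc103 (-0.869). Most like the mean of the 4 evening genes were RAB15 (r = 0.954), CAPIP1 (0.95), AGA3a (0.949) and aos2 (0.932), and the most opposite were CNR13 (-0.951), caat1 (-0.945) and ERD6 (-0.939). That evening mean gives toc1b, with the fewest counts and the widest spread within genotypes, the same weight as the others. For bx1 the CPM ran from 226 to 388, and for aos2 from 11.5 to 36.8. Centred within genotype, r was 0.841 to 0.972 for the alike genes and -0.974 to -0.857 for the opposite ones. Being the extremes of 2057 genes over 9 points, they share the depth and scaling of the libraries.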

How the data were processed

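Total RNA was extracted from seedlings and sequenced with standard Illumina libraries, per the labels' protocols. The authors deposited raw read counts per gene as whole numbers, in 1 column per library, and TopHat and HTSeq are named without versions per the submitters' processing notes. Genome build, annotation and strand setting: not given in the sources used here. Hence no coordinates are printed and antisense or overlapping genes are uncertain. Columns were mapped to samples by title, and 9391 identifiers had 0 counts in each library. Names and chromosomes came from the RefSeq table of assembly Zm-B73-REFERENCE-NAM-5.0, which matched 18775 of 39656 identifiers.

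R 4.3.3 ran edgeR 4.0.16 (with limma 3.58.1) on these counts. Low genes were removed with filterByExpr at a minimum count of 10, and libraries were scaled by TMM and tested with the quasi-likelihood F test in 1 fit over 9 libraries, with Benjamini-Hochberg adjustment at 0.05. Intervals of 95% came from the fold and its F value. Log2 CPM used a prior count of 2. Correlations used exact permutation tests in Python 3.11.15 with numpy 2.4.6. The procedure was tested on simulated counts. DESeq2 1.42.0 and other settings were alternatives. The term for the replicate number and the sum of lhy1 with its second identifier were added after seeing the data. The members, lists and tests were chosen with earlier results of these data known. Lists of other clock, photoreceptor, flowering, light-harvesting, histone and cell division genes were matched on symbols and synonyms by fixed patterns, ignoring case. Tissue markers were matched by exact case. Named beside the 6 members were PRR59, list genes past the threshold, the 2 photoreceptor and flowering genes with the highest CPM, and genes ranked by correlation. After their values were seen, id1 and cab48 were named too, for libraries that did not overlap. Promoter and protein sequences were not used here.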

Additional observations from a re-analysis of the deposited data

How the results depend on the processing

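The count of clock genes past the edgeR threshold was 0 in each of the 3 comparisons under 17 alternatives each (RLE size factors, DESeq2, no filter, the groups compared alone, TMM without chromosome 1, a threshold of 0.01, the replicate number as a block, lhy1 with its second identifier, and leaving out each library), and the morning minus evening differences moved by less than the spread between libraries, though without single libraries the one of P1-ww714 over B73 ran from 0.0271 to 0.529 and that of P1-ww714/B73 over B73 from -0.07 to 0.43. The lowest adjusted p of a member was 0.183, for toc1b under the replicate block. Its unadjusted p there was 0.00406 (gi2 0.0231), and toc1b had 0.0376 without the filter and 0.0098 without P1-ww714 replicate 1. With the replicate block, 243, 18 and 0 of all genes passed, and PRR59 passed in P1-ww714 against B73 (-0.76, adjusted p = 0.0269), against 0.148 to 1 under its other alternatives. The deviations of same-numbered libraries correlated at -0.123 to 0.498, over 0.1 in 4 of 9 pairs, against -0.35 to 0.253 for other pairs, and 7 of 18 best matches of a library in another genotype had its own number, so the samples are taken to share only a number.

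Over all genes, DESeq2 called 311, 73 and 27. In P1-ww714/B73 against B73 the 25 calls became 0 with only the groups compared, 7 at a threshold of 0.01, and 6 to 20 without single libraries. P1-ww714 against the heterozygote had 0 to 4 without single libraries. PhyB1 in P1-ww714/B73 against B73 passed with DESeq2 (0.64) and without the filter (adjusted p = 0.0449), and not in the edgeR fit (0.0516).

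Without the 2 farthest libraries 0 pairwise correlations passed. Centred within genotype the count was also 0, but the smallest p of those permutations is 0.00463, which for a lone pair adjusts to 0.0694, so that count says nothing about strength, and r of gigz1 with gi2 was 0.952 there. The sign of r turned for lhy1 with toc1 (-0.0173 centred, -0.196 without those libraries) and, without those libraries, for lhy1 with toc1b (0.129), gigz1 (0.43) and gi2 (0.446) and for toc1 with toc1b (0.152).

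Some folds changed sign without single libraries, none past the threshold. Among them was toc1b in P1-ww714/B73 against B73, at -0.34 in the main fit and 0.195 without B73 replicate 1. In P1-ww714 against B73 the ranges were -0.276 to 0.0253 for cca1, -0.182 to 0.0325 for lhy1 and -0.107 to 0.0596 for gigz1. In P1-ww714/B73 against B73 they were -0.0741 to 0.227 for cca1, -0.10 to 0.11 for lhy1, -0.63 to 0.20 for toc1b, -0.145 to 0.0308 for gigz1, -0.20 to 0.13 for gi2, -0.319 to 0.0555 for nph1 and -0.0839 to 0.0482 for HD6. For P1-ww714 against the heterozygote they were -0.26 to 0.15 for toc1, -0.0661 to 0.113 for gigz1, -0.368 to 0.0101 for nph1, -0.073 to 0.0604 for conz1 and -0.096 to 0.0359 for HD6. The cause of these changes was not tested. Without P1-ww714/B73 replicate 1, the folds of P1-ww714/B73 over B73 were 0.05 for cca1, -0.07 for lhy1 and -0.07 for toc1. They were -0.63 for toc1b, -0.14 for gigz1 and -0.18 for gi2, none past the threshold. Depth limits toc1 and toc1b most, with 40 to 86 and 11 to 62 counts per library.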
